A study of Mus musculus with 6 samples.

Results

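The oligoadenylate synthetase family was followed in a mouse line of undifferentiated pleomorphic sarcoma (UPS), a soft-tissue tumour, which the labels describe as metastatic. The 8 family genes taken by name from the 55471 genes of the count table were Oas1a, Oas1b, Oas1c, Oas1g, Oas2, Oas3, Oasl1 and Oasl2. RNA was sequenced from 3 libraries labelled Setd1a knockout and 3 labelled wild-type control, numbered 1 to 3 in each group and grown in the same serum-containing medium. Setd1a encodes a histone methyltransferase of a COMPASS complex, which marks active promoters. How the knockout was made, whether it is 1 clone and whether each replicate was its own culture are not stated in the labels. The p-values therefore measure only the spread between these libraries, which may be technical. The sample titles also carry a tag that divides the libraries as the knockout does, and the tag and the knockout cannot be told apart.

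Oligoadenylate synthetases are enzymes of antiviral defence. On binding double-stranded RNA they join ATP into short 2-5A chains, which act as a messenger that sets off the cutting of cellular and viral RNA. Interferon raises the transcription of the family through the transcription factor complex ISGF3 and through interferon regulatory factors (IRFs), so its mRNAs are widely used as a reading of interferon signalling. In the mouse the single human OAS1 gene is matched by a cluster of Oas1 copies, and the Oasl proteins carry ubiquitin-like domains after the synthetase fold.

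Library totals lay between 17749533 and 18272622 counts, and 13044 genes had enough counts to be tested. The Setd1a transcript itself was present in every library, at 53.2, 68.7 and 56.3 CPM (read counts scaled to a common library size) in knockout replicates 1, 2 and 3, against 71.0, 75.3 and 73.5 CPM in the controls. All knockout values lay below all control values (p = 0.1 in an exact permutation test, two-sided, the lowest value that 3 libraries against 3 can give). The edgeR adjusted p was 0.426. Of the exonic sequence of Setd1a, 52.3% is shared with other annotated genes, among which Gm49388 has the largest overlap. The cells expressed all 8 mesenchymal markers on the list used, summing to between 7487 and 8696 CPM in the knockouts and between 8765 and 9162 CPM in the controls. Of 10 leukocyte markers, 1 passed the low-count filter, the lysosomal gene Cd68, and Adgre1, Cd3e and Siglech had 0 counts in all libraries. Below the filter, the macrophage receptor gene Csf1r had 20, 23 and 4 counts in knockout replicates 1, 2 and 3, against 2, 6 and 2 in the controls. The B-cell receptor gene Cd79a had 3, 10 and 8 counts in the knockouts, against 1, 4 and 1 in the controls, and each of the other 4 markers had at most 5 counts in any library. The leukocyte list summed to between 8.54 and 15.7 CPM in the knockouts and between 7.52 and 9.21 CPM in the controls, and its part in the results that follow was not tested. Endothelial markers summed to between 2.61 and 3.74 CPM in the knockouts and between 1.16 and 2.63 CPM in the controls, and epithelial markers to between 46.2 and 86.5 CPM in the knockouts and between 50.8 and 86.1 CPM in the controls.

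The family lies at 2 places on mouse chromosome 5 (GENCODE M21, GRCm38). Oas2, Oas3, Oas1c, Oas1b, Oas1g and Oas1a stand in a 177 kb cluster between positions 120730333 and 120907521, with Oas1d, Oas1e, Oas1f and Oas1h in it or directly beside it. Oasl2 (114896936 to 114912234) and Oasl1 (114923240 to 114937915) form a pair 41.0 kb across. The start sites of Oas1b and Oas1c face away from each other and are 120 bases apart.

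The stretches before the starts of Oas1b, Oas1a and Oas1g are shown because they share 16 bases, given in capitals, directly ahead of the start, while that before Oasl1 is shown because its matches, also in capitals, are of another kind. The sequences are from RefSeq (GRCm38.p6), each read 5′ to 3′ in the direction of the gene it is named for. The Oasl1 stretch is the first 153 bases of its 250-base window and stops before the first Oasl1 base in RefSeq. The window itself runs on to position 114923239, and distances for Oasl1 are counted from there.
Oas1b, chr5:120812515-120812634, plus strand: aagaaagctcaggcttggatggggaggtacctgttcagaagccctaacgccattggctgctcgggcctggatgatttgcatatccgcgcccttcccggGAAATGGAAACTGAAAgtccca
Oas1a, chr5:120907526-120907645, minus strand: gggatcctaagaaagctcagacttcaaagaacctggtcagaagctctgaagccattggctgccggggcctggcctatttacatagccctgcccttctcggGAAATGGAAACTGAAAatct
Oas1g, chr5:120887614-120887733, minus strand: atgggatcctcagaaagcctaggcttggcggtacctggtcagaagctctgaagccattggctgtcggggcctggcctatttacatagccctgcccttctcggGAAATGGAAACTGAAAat
Oasl1, chr5:114922990-114923142, plus strand: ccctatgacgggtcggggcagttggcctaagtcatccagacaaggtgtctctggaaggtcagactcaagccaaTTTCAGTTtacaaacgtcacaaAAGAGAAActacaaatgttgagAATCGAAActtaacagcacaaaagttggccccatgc

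IRF proteins are known to bind repeats of the kind searched here. The motif GAAANNGAAA (called the IRF pair), read on both strands, occurred in 2.98% of all 32851 RefSeq windows of 250 bases before a start. It was present in the windows of 4 of the 6 family genes in that table, Oas1a, Oas1c, Oas1g and Oas3. The shorter motif AANNGAAA (the IRF core), which every IRF pair contains, occurred in 21.3% of all windows and in 5 of the 6, the fifth being Oasl1 with 3 matches. Neither motif was found in the window of Oasl2. The capitals in the first 3 sequences are 2 overlapping IRF pairs, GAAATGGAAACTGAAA, which end 7 bases before the start of Oas1b, 5 before that of Oas1a and 3 before that of Oas1g. The same bases lie on the other strand of the Oas1c window, since Oas1b and Oas1c share that stretch. Among all windows this run of 16 bases occurred at 5 genes, the 3 family members Oas1a, Oas1c and Oas1g and the apolipoprotein L genes Apol9a and Apol9b. A match describes letters and says nothing of binding in these cells.

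**Figure D1:**
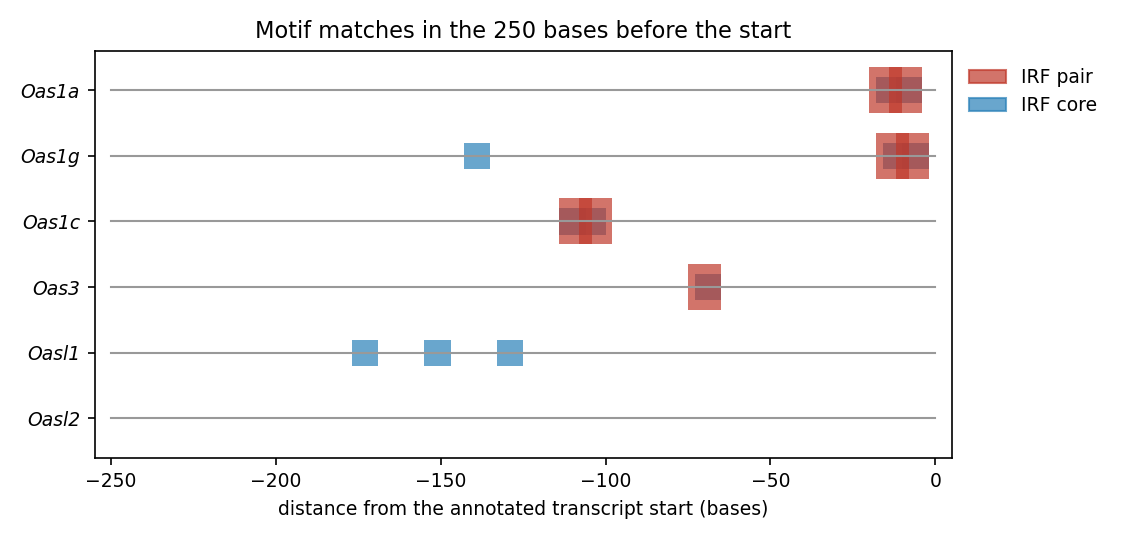
Matches to the IRF pair (red) and IRF core (blue) in the 250-base windows of the 6 family genes in the RefSeq promoter table. They are plotted by distance in bases from the end of the window, which the axis names as the transcript start. Oas1a and Oas1g carry overlapping pairs ending 5 and 3 bases before the start, and Oasl2 has no match. Oasl1 has 3 core matches between 177 and 126 bases before the end of its window. That window runs on beyond the printed stretch and past the first Oasl1 base in RefSeq.

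As a family, the 8 genes were highest in knockout replicates 2 and 3. Their sum in knockout replicate 1 lay within the range of the controls, which themselves differed. Their summed level was 67.7, 257 and 252 CPM in knockout replicates 1, 2 and 3, against 83.9, 58.3 and 42.5 CPM in control replicates 1, 2 and 3. The means were 192 ± 108 CPM in the knockouts and 61.6 ± 20.9 CPM in the controls (SD, n = 3 each), and the 2 groups overlapped because knockout replicate 1 lay below control replicate 1. Set beside the control of the same number, the sum in knockout replicate 1 was 0.807-fold, that in replicate 2 was 4.40-fold and that in replicate 3 was 5.93-fold. In bulk RNA, more cells expressing a gene and more RNA per cell cannot be told apart.

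Taken gene by gene, the log2 ratios within pairs had medians over the family of -0.79 for pair 1, 2.05 for pair 2 and 2.48 for pair 3. Over all genes tested the same medians were 0.00, -0.00 and -0.02. All 8 genes lay above 0 in pairs 2 and 3, and 6 of the 8 lay below 0 in pair 1. That order of signs, below 0 in pair 1 and above 0 in the other pairs, was found in 9.75% of all genes tested. The exceptions were Oas1g and Oasl1, which lay above 0 in all 3 pairs, as did 19.9% of all genes tested.

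**Figure D2:**
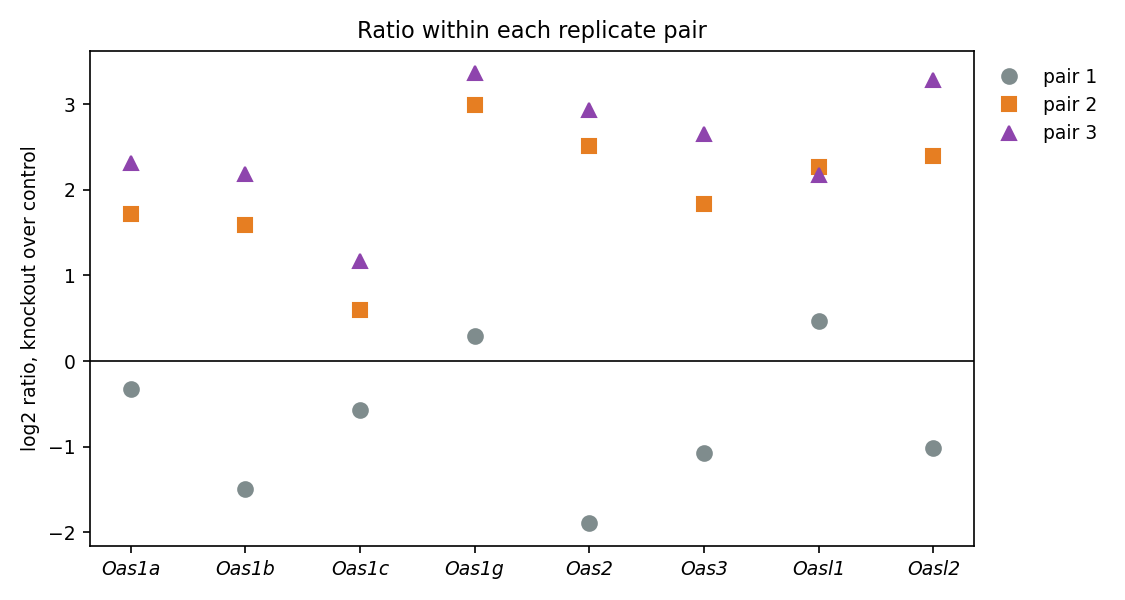
Log2 ratio of the knockout library to the control library of the same number for each gene, with pair 1 as grey circles, pair 2 as orange squares and pair 3 as purple triangles. Pairs 2 and 3 lie above 0 for every gene, and pair 1 lies above 0 for Oas1g and Oasl1 only.

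All 8 genes passed the low-count filter. Of these, 6 had at least 10 counts in every library. Oas1g passed through the knockout libraries, since only 1 control library reached 10 counts, so its passing already implied a difference and its calls are given as a description. Oas2 reached 10 counts in 2 knockout and 2 control libraries.

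In edgeR's quasi-likelihood test without pairing, 0 of the 8 genes passed at a Benjamini-Hochberg adjusted p under 0.05, and 0% of all genes did so in either direction. At an unadjusted p under 0.05, 5 of the 8, Oas1g among them, were higher in the knockouts, beside 5.5% of all genes tested. In the paired test, which adds the replicate number to the model, 2 of the 8 were called higher, beside 1.43% of all genes tested. These were Oasl1 and Oas1g, and leaving aside Oas1g, which passed the filter through the knockouts, Oasl1 was the only one. That test called 0 of the 8 lower, beside 0.851% of all genes. At an unadjusted p under 0.05 it put 5 of the 8 higher, Oas1g among them, beside 9.94% of all genes. With DESeq2 size factors the paired test again called 2 of the 8 higher, beside 1.48%, and with a minimum mean of 5 CPM it called Oasl1 alone, beside 1.27%. DESeq2 without pairing called the same 2 genes, beside 0.773% of all genes, of which again Oasl1 alone remains when Oas1g is set aside. DESeq2 with pairing called Oas1g alone, beside 1.33%, and thus none of the other 7 genes (adjusted p = 0.0775 for Oasl1). A missed call does not show that a gene was unchanged, since the spread between libraries was wide.

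The Oas1 group comes first. Oas1a encodes an active synthetase in the mouse. It stood at 4.57, 19.8 and 22.1 CPM in knockout replicates 1, 2 and 3, against 5.75, 5.92 and 4.37 CPM in control replicates 1, 2 and 3. The controls differed little, and knockout replicate 1 fell inside their range while the other knockouts lay far above it. Its log2 change was 1.53 ± 0.45 (SE) without pairing (edgeR adjusted p = 0.317) and 1.34 ± 0.38 with pairing (adjusted p = 0.0932).

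Oas1g, the closest copy of Oas1a, had the largest change of the family. It held 0.771, 4.33 and 6.21 CPM in knockout replicates 1, 2 and 3, against 0.609, 0.447 and 0.504 CPM in the controls, which is 14, 78 and 113 counts against 11, 8 and 9. Every knockout library lay above every control library, and the lowest knockout library lay close to the controls. In the fits this was a log2 change of 2.84 ± 0.65 (SE) without pairing (edgeR adjusted p = 0.194) and 2.69 ± 0.47 with pairing (adjusted p = 0.0290). The paired call was lost without pair 3 (log2 change 2.06, adjusted p = 0.118).

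Oas1a and Oas1g have coding sequences of 1101 bases each that are 97.3% identical over the aligned bases, and their 250 bases before the start are 86.9% identical. Of all 50-base stretches of annotated Oas1a transcripts, 57.6% also occur in Oas1g, and 40.9% of the 100-base stretches do. Reads from those stretches cannot be assigned to either gene, and how the authors' counting treated them is not given in the sources used here. Their sum, which would not change if reads had only been divided otherwise between the copies, was 5.34, 24.1 and 28.3 CPM in knockout replicates 1, 2 and 3, against 6.36, 6.36 and 4.88 CPM in the controls. In that sum the knockout and control libraries overlapped, unlike for Oas1g alone.

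Oas1b is the flavivirus resistance gene, which carries a premature stop in many laboratory strains, and the annotation lists it as a polymorphic pseudogene. It held 1.05, 6.11 and 6.49 CPM in knockout replicates 1, 2 and 3, against 3.15, 1.95 and 1.35 CPM in the controls. Knockout replicate 1 was the lowest of all 6 libraries and the other knockouts the highest. Its log2 change was 1.08 ± 0.55 (SE) without pairing (edgeR adjusted p = 0.558) and 0.93 ± 0.54 with pairing (adjusted p = 0.386). The strain of the tumour line is not given in the sources used here, and counts per gene do not show which allele was expressed.

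Oas1c, on the other side of the shared 120 bases, differed least. It held 1.05, 3.11 and 2.53 CPM in knockout replicates 1, 2 and 3, against 1.60, 2.01 and 1.06 CPM in the controls. The groups overlapped at low levels, with the lowest knockout and the lowest control nearly equal. The log2 change was 0.51 ± 0.40 (SE; edgeR adjusted p = 0.770). Of its exonic bases, 9.44% are shared with other annotated genes, among which Gm43069 has the largest overlap. Of the other Oas1 genes of the cluster, Oas1e, Oas1f and Oas1h had 0 counts in all libraries. Oas1d, known from mouse oocytes, had 0, 2 and 2 counts in the knockouts and 1, 1 and 0 counts in the controls, at or under the 3 counts taken as the floor.

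Oas2 encodes the synthetase with 2 copies of the catalytic fold. It held 0.441, 4.33 and 3.74 CPM in knockout replicates 1, 2 and 3, against 1.94, 0.670 and 0.392 CPM in the controls. In pair 1 the knockout stood at 0.227-fold of its control, the lowest ratio of the family, and in pair 3 at 9.53-fold. Its libraries held between 7 and 78 counts, so its counting error is wide. The log2 change was 1.49 ± 0.71 (SE) without pairing (edgeR adjusted p = 0.523).

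Oas3 encodes the longest synthetase, which senses long double-stranded RNA and in human cells was found to be the main source of 2-5A. It held 7.54, 49.0 and 50.7 CPM in knockout replicates 1, 2 and 3, against 16.0, 13.6 and 7.96 CPM in the controls. Knockout replicate 1 lay just below the lowest control, and the other knockouts lay more than 3-fold above the highest. The log2 change was 1.51 ± 0.54 (SE) without pairing (edgeR adjusted p = 0.393) and 1.26 ± 0.54 with pairing (adjusted p = 0.236).

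Oasl1 encodes a protein without synthetase activity that, in mouse cells, restrains interferon production by holding back the translation of Irf7. Its libraries held 39.2, 89.4 and 89.5 CPM in knockout replicates 1, 2 and 3, against 28.3, 18.4 and 19.7 CPM in the controls. All knockout libraries lay above all controls, which was also true of Oas1g and of 7.49% of all genes tested. The ratio to the control of the same number was 1.38-fold in pair 1, 4.85-fold in pair 2 and 4.54-fold in pair 3. Oasl1 had a log2 change of 1.71 ± 0.29 (SE) without pairing (edgeR adjusted p = 0.134) and 1.65 ± 0.29 with pairing (adjusted p = 0.0291), and the paired call was lost without pair 3 (log2 change 1.36, adjusted p = 0.0977).

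Oasl2 encodes the Oasl protein that has kept synthetase activity. It held 13.1, 80.8 and 70.8 CPM in knockout replicates 1, 2 and 3, against 26.6, 15.3 and 7.17 CPM in the controls. The controls were themselves spread widely, and knockout replicate 1 lay inside their range. The log2 change was 1.75 ± 0.59 (SE) without pairing (edgeR adjusted p = 0.360) and 1.63 ± 0.64 with pairing (adjusted p = 0.204). Oasl1 and Oasl2 are 70.5% identical over the aligned bases of their coding sequences, and no 50-base stretch of an Oasl1 transcript occurs in another gene's transcripts, so no read of that length can be confused between them. Of the exonic bases of Oasl1, 1.46% are shared with other annotated genes, among which Gm13822 has the largest overlap.

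**Figure D3:**
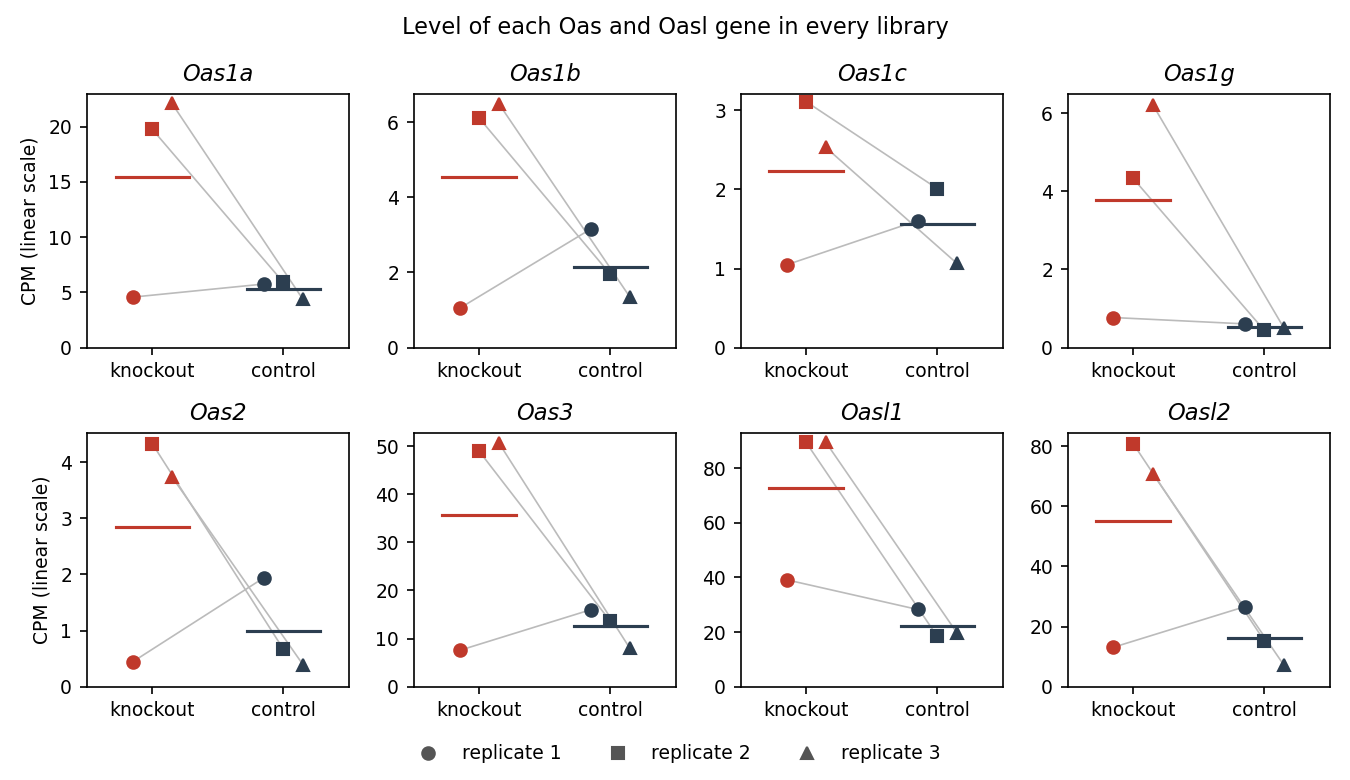
CPM of each gene in the 3 knockout libraries (red, left) and the 3 control libraries (dark, right), with the group mean as a bar, the replicate number as the symbol, and a grey line joining libraries of the same number. Knockout replicates 2 and 3 stand above every control in each panel, while knockout replicate 1 lies above all controls only for Oas1g and Oasl1.

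The neighbouring Oasl genes changed by different amounts across libraries. The ratio of Oasl1 to Oasl2 in CPM was 2.99, 1.11 and 1.26 in knockout replicates 1, 2 and 3, against 1.06, 1.20 and 2.75 in the controls. The libraries with the ratio near 3 were knockout replicate 1 and control replicate 3, which also held the least Oasl2. Oasl1 made up 57.9% of the summed CPM of the family in knockout replicate 1 and 46.4% in control replicate 3, and between 31.6% and 35.5% in the other 4 libraries.

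Levels were also divided by exonic length in kb, taken over all annotated transcripts of a gene. That length was 6374 bases for Oasl2 and 2608 for Oasl1, with coding lengths of 1524 and 1533 bases. Which transcripts were expressed is not known, so the order of the genes rests on the annotation. For Oas1a and Oas1g it also rests on how reads from shared stretches were counted. On this scale Oasl1 was the most abundant of the family in every library. It averaged 27.9 ± 11.1 CPM per kb in the knockouts and 8.49 ± 2.05 in the controls (SD, n = 3 each). Next in the knockouts were Oasl2 at 8.62 ± 5.73, Oas1a at 8.21 ± 5.05 and Oas3 at 5.05 ± 3.46 CPM per kb. In the controls Oas1a stood at 2.84 ± 0.451, Oasl2 at 2.56 ± 1.53 and Oas3 at 1.77 ± 0.584 CPM per kb. Since the genes were measured in the same libraries, their order was read within each library. Oas1a stood above Oas3 in all 6 libraries and Oasl2 above Oas3 in all 3 knockouts, while Oas1a and Oasl2 changed places from library to library. The lowest were Oas2 at 0.637 ± 0.471 CPM per kb in the knockouts and Oas1g at 0.222 ± 0.0351 CPM per kb in the controls, where Oas2 stood at 0.225 ± 0.185.

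**Figure D4:**
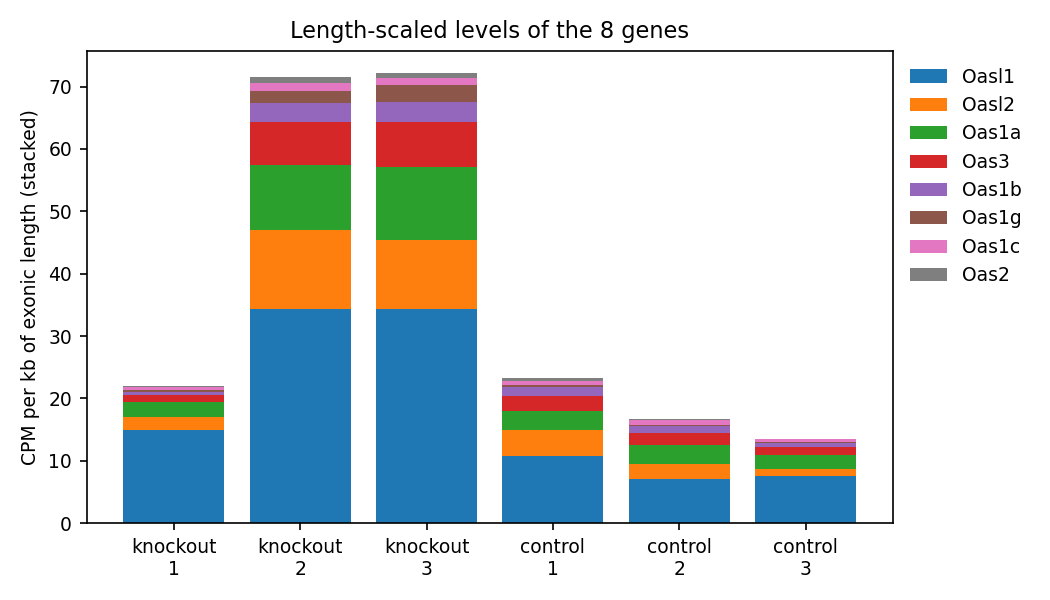
CPM per kb of exonic length of the 8 genes, stacked for each knockout library (left) and control library (right). Oasl1 is the largest block in every bar, and the bars of knockout replicates 2 and 3 stand above those of knockout replicate 1 and the controls.

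The spread between libraries of the same group was wide for the whole family. The within-group SD of log2 CPM had a median of 1.09 over the 8 genes and 0.19 over all genes tested. Oasl1 had the smallest value of the family, 0.54, at the 94.9th percentile of all genes tested, and Oas2 the largest, 1.40, at the 99.95th percentile. Oas1g and Oas2 are the members that had fewer than 10 counts in some libraries.

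The list of 6 other genes of the 2-5A pathway was set beside the synthetases. Of these 6 genes, 0 passed either edgeR test, beside 0% of all genes without pairing and 1.43% higher and 0.851% lower with it. The median log2 change without pairing was -0.02, beside 0.00 for all genes tested. Akap7 and Pde12, whose products degrade 2-5A, had paired log2 changes of -0.24 ± 0.15 and 0.09 ± 0.08 (SE; edgeR adjusted p = 0.456 and 0.606). Pelo, a ribosome rescue factor, stood at -0.17 ± 0.13 (SE; adjusted p = 0.531).

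Among 12 other sensors of nucleic acid, 2 were called higher and 0 lower in the paired edgeR test, which called 1.43% of all genes higher and 0.851% lower. These were Cgas and Ifih1. Cgas encodes the DNA sensor whose catalytic fold is related to that of the synthetases. It held 16.0, 15.9 and 17.3 CPM in knockout replicates 1, 2 and 3, against 8.69, 8.10 and 8.97 CPM in the controls. Cgas was thus higher by much the same amount in all 3 pairs, with log2 ratios of 0.87, 0.96 and 0.94 and a paired log2 change of 0.93 ± 0.11 (SE; edgeR adjusted p = 0.0162 with pairing and 0.134 without). DESeq2 gave Cgas an adjusted p of 0.000295 with pairing. Ifih1, which encodes the RNA sensor MDA5, held 34.1, 75.3 and 63.1 CPM in the knockouts, against 28.7, 18.9 and 13.6 CPM in the controls. Its log2 ratio was 0.25 for pair 1, 1.99 for pair 2 and 2.20 for pair 3, and the paired log2 change was 1.48 ± 0.30 (SE; edgeR adjusted p = 0.0419). The Ifih1 call was lost in the other fits, with adjusted p = 0.180 in edgeR without pairing, 0.0545 in DESeq2 without pairing and 0.165 in DESeq2 with pairing. Ddx58, the gene of the RNA sensor RIG-I, had a paired log2 change of 0.98 ± 0.37 (SE; adjusted p = 0.189). Tlr3, an endosomal sensor of double-stranded RNA, had log2 ratios of -0.24, 1.37 and 1.71 for pairs 1, 2 and 3 (adjusted p = 0.112). The list's median log2 change without pairing was 0.82.

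Of 9 genes for interferon production, 4 passed the filter and 0 passed either test. The shares over all genes were 0% without pairing, and 1.43% higher and 0.851% lower with it. Irf7, the interferon regulatory factor restrained by Oasl1, held 15.5, 99.1 and 73.6 CPM in knockout replicates 1, 2 and 3, against 29.7, 30.5 and 9.02 CPM in the controls (paired log2 change 1.30 ± 0.55, SE; edgeR adjusted p = 0.236). Irf3 stood at -0.31 ± 0.09 (adjusted p = 0.0865), and the kinase genes Tbk1 and Ikbke at 0.02 ± 0.09 and 0.09 ± 0.19 (adjusted p = 0.934 and 0.856). The interferon genes themselves were at or near 0, with 1, 1 and 2 counts of Ifnb1 in the knockouts and 0 in each control, 1 count of Ifna4 in knockout replicate 2 and 0 in the other libraries, and Ifna1, Ifna2 and Ifna5 at 0 in all libraries. Those counts are at or under the floor of 3.

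Of 10 genes for the interferon receptor, JAK-STAT signalling and ISGF3, 0 passed either test. Over all genes, 0% passed without pairing, and 1.43% were called higher and 0.851% lower with it. The median log2 change of the 10 was 0.24 without pairing. Usp18, the interferon-induced brake on the receptor, had a paired log2 change of 1.45 ± 0.63, Irf1 of 0.31 ± 0.12 and the kinase gene Jak1 of 0.16 ± 0.07 (SE; edgeR adjusted p = 0.246, 0.208 and 0.245). All 16 other interferon-stimulated effectors had the signs seen in 6 of the 8 family genes, below 0 in pair 1 and above 0 in pairs 2 and 3. None of the 16 passed either edgeR test, beside the same shares of all genes. Their median log2 ratio was -0.82, 1.82 and 2.61 in pairs 1, 2 and 3. Among them the paired log2 change was 1.46 ± 0.39 for Ifit1, 1.60 ± 0.55 for Cmpk2, 1.62 ± 0.56 for Rsad2 and 1.34 ± 0.49 for Ifit3b (SE; adjusted p = 0.0838, 0.154, 0.155 and 0.170).

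**Figure D5:**
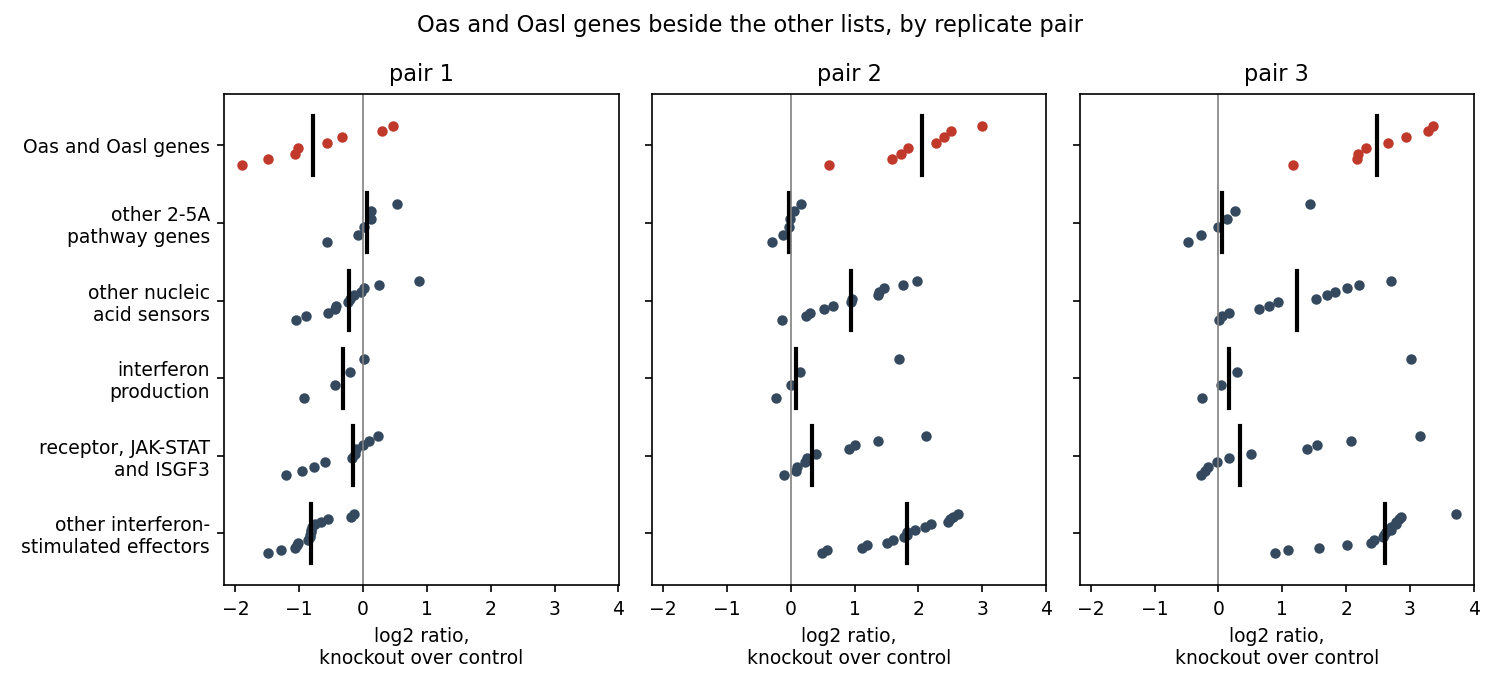
Log2 ratio of knockout to control in each replicate pair for the family genes (red) and the tested genes of 5 other lists (dark), with the median of each list as a black bar. The family median lies at -0.79, 2.05 and 2.48 in pairs 1, 2 and 3, close to the other interferon-stimulated effectors, while the median of the other 2-5A pathway genes stays near 0.

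Genes next to the family were examined at both places. Of 8 protein-coding genes within 200 kb of the Oas cluster, 3 were tested, and of 12 around the Oasl pair, 8 were tested. None of the 11 passed either test, beside 0% of all genes without pairing and 1.43% higher and 0.851% lower with it. Their log2 changes without pairing lay between -0.02 and 0.24 at the cluster and between -0.07 and 0.06 at the Oasl pair. The largest was that of Tpcn1, a lysosomal cation channel, with 0.25 ± 0.08 (SE) in the paired test (edgeR adjusted p = 0.113). Unc119b and Ankrd13a, beside the Oasl pair, stood at -0.07 ± 0.08 and 0.06 ± 0.11 (adjusted p = 0.721 and 0.826).

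Outside the family, the genes whose log2 CPM over the 6 libraries most resembled the mean of the 8 genes were Herc6, Isg15, Tlr3, Parp14 and Helz2, with Pearson correlations between 0.992 and 0.996. Those most like Oasl1 were A230050P20Rik, Cd274, Zfp354a, Rbpms and Ifi207, with correlations between 0.982 and 0.988. Cd274 encodes the immune checkpoint ligand PD-L1 and held 2.15, 3.50 and 4.23 CPM in the knockouts, against 1.33, 1.005 and 1.23 CPM in the controls. These correlations describe 6 libraries, among which knockout replicates 2 and 3 hold the highest family levels. Among the family genes themselves the correlation was lowest for Oas1c and Oasl1, 0.662, and highest for Oas1b and Oas2, 0.982. Apol9a and Apol9b, the other genes with the shared run of 16 bases, had log2 ratios of -0.39 and -0.41 in pair 1, 1.30 and 1.38 in pair 2, and 2.27 and 2.51 in pair 3. They were looked up after the sequence match was seen, and neither passed the paired edgeR test (adjusted p = 0.153 and 0.155).

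The number of family genes called changed with the libraries used. As above, calls of Oas1g are given as a description. Without knockout replicate 1, the unpaired edgeR test called Oas1a, Oas1g, Oas3 and Oasl1 higher, beside 0.227% of all genes tested. The paired test called 7 of the 8 without pair 1, all except Oas1c, beside 3.87% of all genes. It called Oas1g and Oasl1 without pair 2, beside 1.06%, and no family gene without pair 3, where 0% of all genes were called. Without a low-count filter the unpaired test called Oas1a, Oas1g, Oasl1 and Oasl2 higher, beside 0.246%. Knockout replicate 1, the library with the lowest family level among the knockouts, had the lowest Setd1a level of all 6 libraries, 53.2 CPM. Knockout replicate 3 stood close to it in Setd1a, at 56.3 CPM, but had a family sum of 252 CPM. A link between the Setd1a level and the family level was not tested.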

How the data were processed

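Members and gene lists were chosen with earlier results of these data known. The authors deposited raw counts of reads per Ensembl gene, 1 column per library and no normalization. STAR, featureCounts and DESeq with the mm10 build are named per the submitters' processing notes; the sources used here do not give versions, annotation, strand setting or the rule for reads matching several genes, so reads of overlapping or antisense genes may be mixed. Symbols and positions came from GENCODE M21 (GRCm38), matching 55144 of 55471 identifiers. Unmatched ones held at most 0.0204% of a library. Promoters came from RefSeq (6 of the 8 genes matched).

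These were fitted with edgeR 4.0.16 under R 4.3.3 (TMM factors, low-count filter by group with a minimum count of 10, two-sided quasi-likelihood test, Benjamini-Hochberg adjustment over 13044 genes, threshold 0.05). The SE given with an edgeR log2 change is the size of that change divided by the square root of the test's F value. DESeq2 1.42.0 was the alternative. Logged CPM used a prior count of 2. At this depth 1 CPM is about 18 reads. No libraries were duplicates (chi-square per degree of freedom of at least 21.6). The design without pairing came first, with the replicate number as a block beside it. Deviations from group means correlated at 0.15, 0.46 and 0.38 for libraries of the same number, all above 0.1, so the numbers were taken as pairs. For libraries of unlike number the correlations lay between -0.446 and 0.0531. Pair 1 was set apart least, since knockout replicate 1 correlated at 0.0531 with control replicate 2. The labels do not say that the numbers mark pairs. The genes to be named were the 8 family genes, Setd1a, the other Oas1 genes, up to 4 genes per list and 3 neighbours by smallest paired p, and the 5 most alike; some genes that this rule picks are not reported here. Ifnb1, the other interferon genes and the Apol9 genes were added after their values were seen. The fits were also run on simulated counts, with an outcome not reported here. Those counts had the spread usual for a gene's level, while the family genes lay from the 94.9th percentile of spread upward. The simulation therefore does not cover genes like these.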

Additional observations from a re-analysis of the deposited data

How the results depend on the processing

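Without pairing, the edgeR test called 0 genes higher and 0 lower, and 0 family genes; the counts at an unadjusted p under 0.05 were 718 higher and 588 lower. The called genes numbered, higher and lower, 62 and 12 without a low-count filter, 93 and 40 in DESeq2, 187 and 111 with the replicate block, 157 and 157 in DESeq2 with the block, 193 and 124 with the block and DESeq2 size factors, and 126 and 84 with the block and a minimum mean of 5 CPM. The family genes called higher were 4, 2, 2, 1, 2 and 1 under those settings, Oas1g among them in all but the last, and 0 were called lower under any. Unpaired, leaving out knockout replicate 1 gave 30 higher and 1 lower, and leaving out any other library gave 0. With the block, leaving out pair 2 gave 140 higher and 54 lower. Over all such omissions the calls ran between 0 and 507 genes higher, between 0 and 207 lower, and between 0 and 7 family genes higher. The largest came with the block without pair 1, and 0 came with the block without pair 3 as well as in the 5 unpaired omissions named above. For single family genes, all 136 alternative values had the direction of the unpaired test, and 25 of them passed the threshold. Every alternative kept knockout replicate 2, 3 or both, and none used pair 1 alone, where 6 of the 8 genes lay below 0. The shared direction was thus close to fixed in advance and is given as a description. The 25 include values of Oas1g and values from fits without knockout replicate 1 or pair 1. DESeq2 size factors, library totals and a minimum mean of 5 CPM called nothing without pairing, and with those scalings the ratio of the summed family level stayed between 3.12 and 3.18. The 5 CPM filter removed Oas1b, Oas1c, Oas1g and Oas2, so it gave no value for them. Counts as low as those of Oas1g and Oas2 limit what can be told apart.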
